A study of Homo sapiens with 11 samples.

Results

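Transfer RNA families were followed in the repeat-element lists of an eCLIP experiment on the ribosomal protein RPS19. They were chosen by name, as every listed element whose name begins with tRNA-, and 51 of the 326 repeat elements listed in any group met that rule. The list of the R62W group held 51 tRNA families among 230 elements, that of the R101H group 35 among 252, and that of the WT group 34 among 79.

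In eCLIP, ultraviolet light links RNA to the protein it touches, the RNA is cut into fragments, and the fragments that come down with the protein are sequenced beside a size-matched input. The cells were HEK293T, an established human embryonic kidney line that carries the SV40 large T antigen. The immunoprecipitates (IP) were made with an antibody against the V5 tag, from cells transfected with a plasmid for V5-tagged RPS19. There were 3 R62W, 2 R101H and 3 WT immunoprecipitates, where R62W and R101H each change an arginine of RPS19 and WT is the unchanged protein. The 3 inputs came from cells that received no plasmid, so IP and input differ in transfection as well as in antibody, and no IP from untransfected or tag-only cells was analysed here. All groups share this single line and an overexpressed protein. The labels do not say that replicates were separate cultures, so a p-value here reflects only how these samples vary, and that variation may be technical.

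A tRNA brings its amino acid to the ribosome and reads a codon of the mRNA through its anticodon. Nuclear tRNA genes are transcribed by RNA polymerase III, occur in many copies, and give short, tightly folded and heavily modified RNAs; tRNAs that read different codons for the same amino acid are called isoacceptors. RPS19 is a protein of the head of the small ribosomal subunit, the subunit on which codon and anticodon pair, and its gene is mutated in Diamond-Blackfan anemia, a failure of red cell production. In the deposited names the amino acid is followed by 3 letters, and these are the codon in the mRNA, not the anticodon. In 47 of the 47 families with a triplet, selenocysteine left out, the letters translated to the named amino acid as a codon, and in 0 as an anticodon. Lys-AAA is therefore the lysine family with the anticodon TTT, and Y in a name stands for C or T. A further 3 families, all of methionine, have no triplet. Names ending in _ (11 families) or in (m) (2 families) mark variants that the files do not explain, and reads of near-identical tRNA genes cannot be assigned with certainty to 1 such variant.

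Enrichment is given as a log2 odds ratio of IP over input, as deposited by the authors, relative to a baseline that depends on base composition. The authors gave the lowest, mean and highest replicate of each element, and these fix every replicate value but not which replicate it belongs to. Judged from the values, an element was listed if it passed in at least 2 replicates at a q of at most 0.05, so the enrichment of a listed family is how it was chosen and is described without a test. Read counts were deposited as sums over replicates. The separate lists of enriched genomic windows held 22 windows of the RPS19 gene in R62W, 15 in R101H and 28 in WT. Those lists keep enriched windows only and the input cells received no plasmid, so these counts do not test the tagged protein or the group labels. Over the tRNA families listed in both groups, the summed input of R62W was 1.00 times that of WT and identical in 4 of 34 families, while that of R101H was 0.712 times that of WT. The comparisons with WT share the WT samples, and R62W and WT share nearly the same input. The sources used here do not say which inputs went into each list.

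The tRNA families of the R101H and WT lists were all contained in the R62W list. All 51 were in the R62W list, where 70.6% of the 326 elements were listed. Of the 51, 35 were in the R101H list, against 77.3% of the elements, and 34 were in the WT list, against 24.2%. No tRNA family was listed in R101H or WT without being listed in R62W. Of the other elements, 59.9% of those in the R101H list and 75.6% of those in the WT list were also in R62W. All 3 lists held 32 tRNA families (62.7%), against 11.3% of the other elements. A family outside a list has no value there, which is not a measured absence of binding. Within the lists, 39 of 51 tRNA families passed in every replicate of R62W (60.4% of all listed elements did), all 35 in R101H, where both replicates had to pass, and 30 of 34 in WT (63.3%).

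The 32 families in all 3 lists carried 15 amino acids, selenocysteine included. All 6 arginine, all 3 glutamine and both glycine and lysine families were among them, as were 5 of 6 serine and 4 of 5 threonine families. Leu-TTA, Met_ and Ser-AGY were listed in R62W and R101H, and Glu-GAG_ and Thr-ACG in R62W and WT. The 14 families listed in R62W alone included every alanine (3), isoleucine (3), cysteine (1) and proline (1) family, 3 leucine families, 2 glutamate families and Val-GTG. These were mostly weaker families in R62W itself. The 17 families outside the WT list had a median mean log2 odds ratio of 1.00 in R62W, with means between 0.59 and 3.14, and the 34 inside it 2.59, with means between 0.62 and 4.02. Of the 17, 11 had passed in 2 of the 3 R62W replicates, against 1 of the 34.

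**Figure D1:**
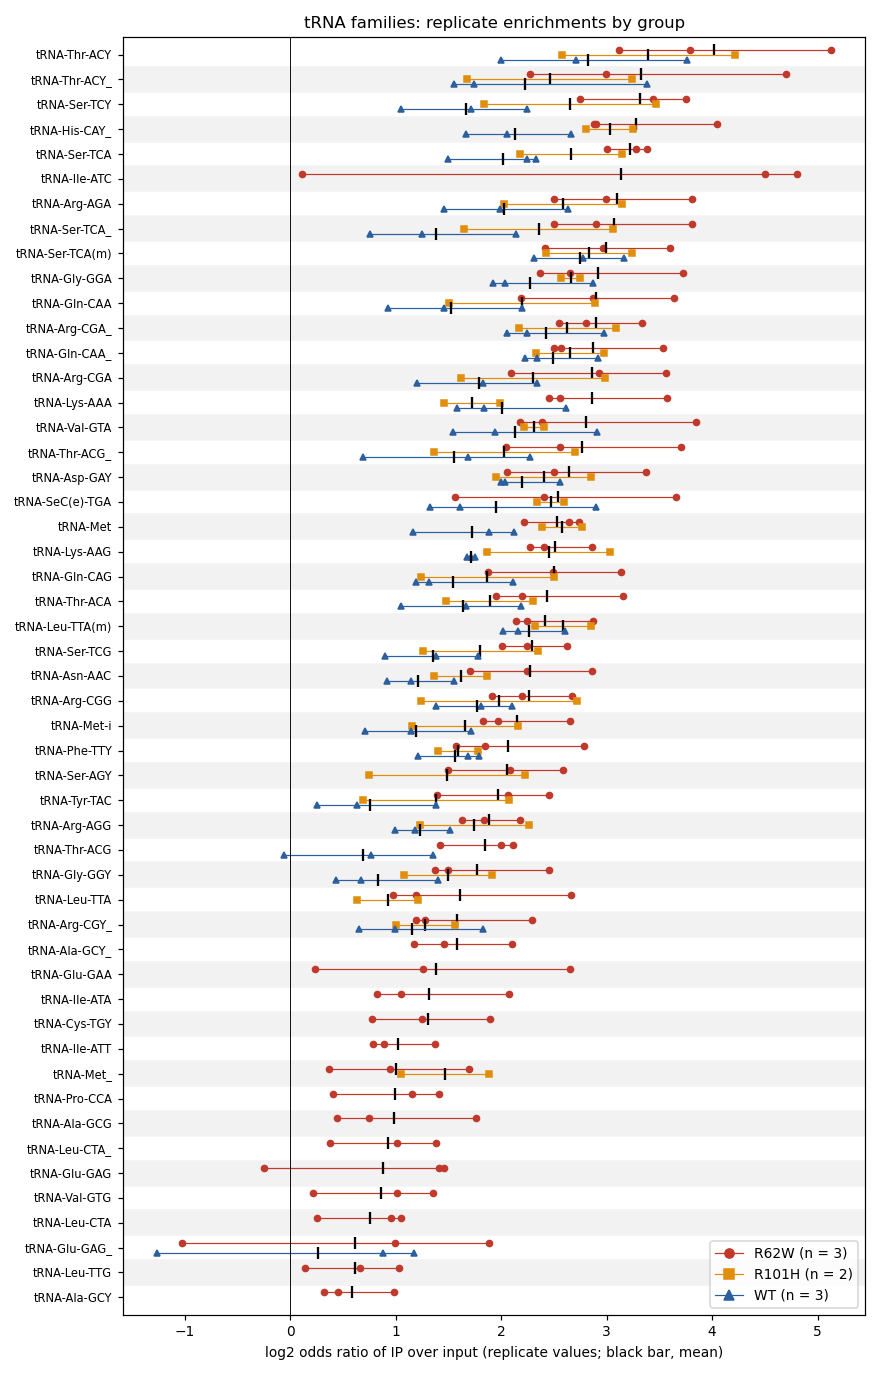
Replicate log2 odds ratios of IP over input (x axis) for the 51 tRNA families (y axis, ordered by their R62W mean), with 1 point per replicate, a line over the range and a black bar at the mean. Thr-ACY has the highest mean of all families in each group, at 4.02 in R62W, 3.39 in R101H and 2.82 in WT, and families without R101H or WT points were not in those lists.

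The threonine families held the most enriched tRNA of each group. Thr-ACY, which reads the codons ACC and ACT, had log2 odds ratios of 3.12, 3.80 and 5.13 in R62W, 2.57 and 4.22 in R101H, and 2.00, 2.71 and 3.76 in WT. It ranked first among tRNA families by mean in all 3 groups, and its WT values overlapped those of both variants. Thr-ACY_ had 2.28, 2.99 and 4.70 in R62W, 1.67 and 3.24 in R101H, and 1.56, 1.74 and 3.39 in WT. Its spread was among the widest, and the groups overlapped throughout. Thr-ACG had 1.42, 2.00 and 2.12 in R62W, and -0.06, 0.77 and 1.35 in WT, and was the lowest threonine family in both lists. The lowest WT value of Thr-ACG lay below 0, and every R62W value lay above every WT value. Thr-ACG_ and Thr-ACA were below Thr-ACY_ in each group, with means of 2.77 in R62W, 2.03 in R101H and 1.55 in WT for Thr-ACG_ and 2.44 in R62W, 1.89 in R101H and 1.64 in WT for Thr-ACA.

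Serine families, whose nuclear tRNAs carry a long variable arm that the synthetase recognises, followed close behind in R62W. Ser-TCY, the family for the codons TCC and TCT, had 2.75, 3.44 and 3.75 in R62W, 1.83 and 3.47 in R101H, and 1.05, 1.71 and 2.24 in WT. The R62W values lay wholly above the WT values, and 1 R101H value lay within the range of each. Ser-TCA had 3.01, 3.28 and 3.38 in R62W, 2.18 and 3.14 in R101H, and 1.49, 2.24 and 2.33 in WT. Its R62W replicates were the closest of any tRNA family, 0.38 between highest and lowest. R62W stood clear of WT, while 1 R101H value lay within the WT range. Ser-TCA_ had 2.50, 2.90 and 3.81 in R62W, 1.65 and 3.06 in R101H, and 0.76, 1.25 and 2.14 in WT. Ser-TCG was lower in each group, with 2.01, 2.24 and 2.62 in R62W, 1.26 and 2.35 in R101H, and 0.90, 1.38 and 1.78 in WT. For both of these families R62W did not overlap WT. Ser-TCA(m) stood at 2.42, 2.97 and 3.60 in R62W, 2.42 and 3.24 in R101H, and 2.31, 2.78 and 3.17 in WT, so all 3 groups overlapped, and it was the next most enriched tRNA family after Thr-ACY in WT. Ser-AGY, the family for the other pair of serine codons, was the lowest serine family in R62W and R101H, with 1.49, 2.09 and 2.58 in R62W, and 0.75 and 2.23 in R101H.

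Histidine was represented by His-CAY_ alone, with 2.88, 2.90 and 4.05 in R62W, 2.81 and 3.25 in R101H, and 1.67, 2.05 and 2.66 in WT. Both variants lay above WT in every replicate. Among the arginine families, Arg-AGA was highest in R62W, with 2.50, 2.99 and 3.81 in R62W, 2.03 and 3.15 in R101H, and 1.46, 1.99 and 2.63 in WT. In WT and R101H the highest was Arg-CGA_, whose replicates were 2.55, 2.80 and 3.34 in R62W, 2.17 and 3.09 in R101H, and 2.06, 2.25 and 2.97 in WT. Neither stood clear of WT in R62W or R101H. Arg-AGG and Arg-CGY_ were the low end of the arginine set. Arg-AGG had 1.63, 1.83 and 2.18 in R62W, 1.23 and 2.26 in R101H, and 1.00, 1.19 and 1.52 in WT. Its R62W values did not overlap those of WT. Arg-CGY_ had means of 1.59 in R62W, 1.28 in R101H and 1.16 in WT, Arg-CGG of 2.26 in R62W, 1.98 in R101H and 1.77 in WT, and Arg-CGA, the arginine family with the fewest reads, of 2.86 in R62W, 2.30 in R101H and 1.79 in WT.

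The lysine isoacceptors differed in how the groups were ordered. Lys-AAA had 2.45, 2.56 and 3.57 in R62W, 1.45 and 1.99 in R101H, and 1.58, 1.84 and 2.62 in WT. Its R101H values lay below every R62W value and overlapped those of WT. Lys-AAG, which reads the other lysine codon, had 2.27, 2.40 and 2.86 in R62W, 1.87 and 3.03 in R101H, and 1.68, 1.71 and 1.75 in WT. Its WT values spanned only 0.0683, the narrowest range of any tRNA family in WT, and both variants lay above them.

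Asp-GAY, the only aspartate family and the largest source of tRNA reads, had 2.06, 2.50 and 3.38 in R62W, 1.95 and 2.86 in R101H, and 2.00, 2.04 and 2.55 in WT. The groups overlapped. Among the glutamine families, Gln-CAA_ was highest in R101H and WT, with 2.50, 2.57 and 3.53 in R62W, 2.33 and 2.97 in R101H, and 2.23, 2.34 and 2.92 in WT. Gln-CAA had 2.19, 2.88 and 3.64 in R62W, 1.51 and 2.89 in R101H, and 0.93, 1.46 and 2.20 in WT. Gln-CAG was the lowest glutamine family in both variants, with means of 2.50 in R62W, 1.87 in R101H and 1.54 in WT. In all 3 glutamine families the WT and variant values overlapped. The same was true of both glycine families, Gly-GGA with 2.37, 2.66 and 3.72 in R62W, 2.57 and 2.75 in R101H, and 1.92, 2.04 and 2.87 in WT and the weaker Gly-GGY with means of 1.77 in R62W, 1.49 in R101H and 0.84 in WT.

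Of the methionine families, Met-i is the initiator tRNA by name, which starts translation in the small subunit, and it was not the most enriched of them. Met-i had 1.83, 1.97 and 2.65 in R62W, 1.15 and 2.16 in R101H, and 0.71, 1.14 and 1.72 in WT. The family named Met had 2.22, 2.65 and 2.74 in R62W, 2.38 and 2.77 in R101H, and 1.16, 1.89 and 2.12 in WT. For Met both variants lay above WT in every replicate, and for Met-i only R62W did. Met_ was listed in the variants alone, with 0.37, 0.94 and 1.70 in R62W, and 1.05 and 1.89 in R101H.

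Tyr-TAC had 1.39, 2.07 and 2.45 in R62W, 0.70 and 2.08 in R101H, and 0.25, 0.63 and 1.38 in WT, and Asn-AAC had 1.71, 2.25 and 2.86 in R62W, 1.36 and 1.87 in R101H, and 0.92, 1.14 and 1.56 in WT. In both families R62W was above WT without overlap and R101H overlapped WT. The remaining families in all 3 lists overlapped between WT and each variant. Their means were 2.80 in R62W, 2.31 in R101H and 2.13 in WT for Val-GTA, 2.07 in R62W, 1.59 in R101H and 1.56 in WT for Phe-TTY, and 2.42 in R62W, 2.59 in R101H and 2.26 in WT for Leu-TTA(m). SeC(e)-TGA, the tRNA that inserts selenocysteine at certain TGA codons, had 1.57, 2.41 and 3.66 in R62W, 2.34 and 2.60 in R101H, and 1.33, 1.61 and 2.90 in WT. Leu-TTA, listed in the variants alone, had 0.98, 1.19 and 2.66 in R62W, and 0.63 and 1.22 in R101H.

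The lowest means in R62W belonged to alanine, leucine and glutamate families. In R101H the lowest were Leu-TTA, at 0.92, Arg-CGY_, at 1.28, and Tyr-TAC, at 1.39, and in WT Glu-GAG_, at 0.26, Thr-ACG, at 0.69, and Tyr-TAC, at 0.76. Ala-GCY had 0.33, 0.45 and 0.98 in R62W, Leu-TTG 0.14, 0.66 and 1.03 in R62W, and Glu-GAG_ -1.02, 0.99 and 1.89 in R62W, and -1.26, 0.88 and 1.18 in WT. Glu-GAG_ had the largest input count of all tRNA families, 29499 reads in R62W and 29529 in WT, and its replicates fell on both sides of 0 in each list. Ala-GCY_ was the highest alanine family, at a mean of 1.58 in R62W, and Ala-GCG stood at 0.98. Glu-GAA was the highest glutamate family, at 1.39, and Glu-GAG stood at 0.88. The other R62W-only means were 1.31 for Cys-TGY, 1.32 for Ile-ATA, 1.02 for Ile-ATT, 0.99 for Pro-CCA, 0.92 for Leu-CTA_, 0.86 for Val-GTG and 0.75 for Leu-CTA. Ile-ATC had a high mean of 3.14, but it rested on 42 IP and 5 input reads in all. Its replicates were 0.11, 4.50 and 4.81 in R62W, the widest spread of any tRNA family.

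Pooled read counts gave the depth behind these values. The median tRNA family held 7867 IP and 1297 input reads in R62W, 6578 and 803 in R101H, and 6072 and 1063 in WT. The smallest sums of listed families were 42 IP reads in R62W (Ile-ATC), 611 in R101H and 516 in WT (both Arg-CGA). Asp-GAY led in every group, with 118648 IP reads in R62W, 72034 in R101H and 88865 in WT. Lys-AAG had 55186, 35417 and 32614 in the same order. Glu-GAG_ was among the 3 largest in R62W and WT, with 49702 and 40363 IP reads, and Arg-AGG in R101H, with 16415. The families with the most IP reads were thus not those with the highest odds ratios. By IP reads per input read, Thr-ACY again led, at 20.1 in R62W and 15.1 in R101H, while in WT Arg-CGA_, at 10.4, was above Thr-ACY, at 9.24. These sums depend on library depths that the tables do not give, so their ratios are compared within a group only.

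**Figure D2:**
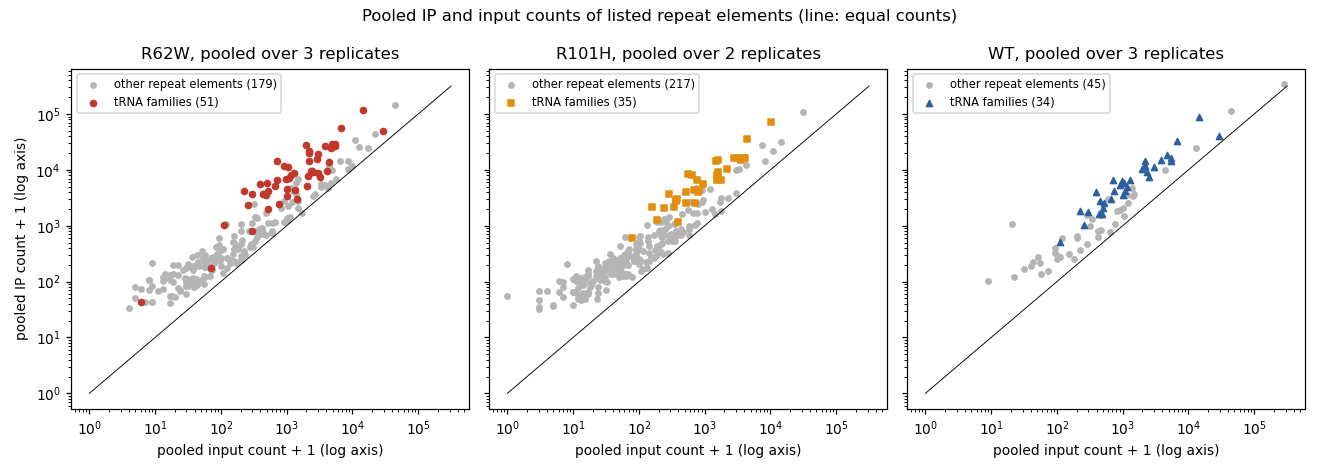
Pooled IP counts (y axis, log scale) against pooled input counts (x axis, log scale) of each listed repeat element, with 1 added to each, in R62W, R101H and WT; coloured points are tRNA families, grey points other elements and the line marks equal counts. Every listed tRNA family lies above the line, from Ile-ATC at 42 IP and 5 input reads up to Asp-GAY at 118648 and 14716 in R62W.

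Among the 63 elements listed in all 3 groups, the 32 tRNA families took 69.9% of the IP reads in R62W (exact 95% interval 69.8% to 70.0%), 65.7% in R101H (65.5% to 65.8%) and 64.7% in WT (64.6% to 64.9%). Their share of the input reads was 48.3% in the R62W list, 49.5% in the R101H list and 48.3% in the WT list. The tRNA share was thus higher in each IP than in its input, and highest in R62W. The intervals cover counting error only and not the spread between replicates, and the shares of pooled libraries were not tested.

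Within the tRNA reads of those 32 families, Asp-GAY took 22.7% of IP reads in R62W, 22.9% in R101H and 26.9% in WT, against 21.0%, 20.5% and 21.0% of the matching inputs. Serine families took 10.1% in R62W, 8.99% in R101H and 7.76% in WT, against 6.97%, 7.07% and 6.96% of input. Threonine families took 4.84%, 4.52% and 3.73% of IP reads in that order, against 2.75%, 2.98% and 2.76% of input. These 3 amino acids had larger shares in each IP than in its input, and so did histidine, lysine, valine and selenocysteine. Histidine took 2.22% of IP reads in R62W, 2.55% in R101H and 1.62% in WT, against 1.31%, 1.28% and 1.31% of input. Valine took 1.27% of IP reads in R62W, 1.25% in R101H and 1.29% in WT, against 1.03%, 1.05% and 1.04% of input. Arginine, asparagine, glycine, leucine, methionine, phenylalanine and tyrosine had smaller shares in each IP. The share of glutamine was smaller in the IPs of both variants, and in WT it was 5.35% of IP reads against 5.27% of input. Selenocysteine in R62W also had a small gap, 0.70% of IP reads against 0.65% of input. Input shares carry no interval here, so these 2 gaps may lie within counting error. Tyrosine had 5.64% of IP reads in R62W, 5.17% in R101H and 4.44% in WT, against 7.72%, 8.26% and 7.72% of input.

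**Figure D3:**
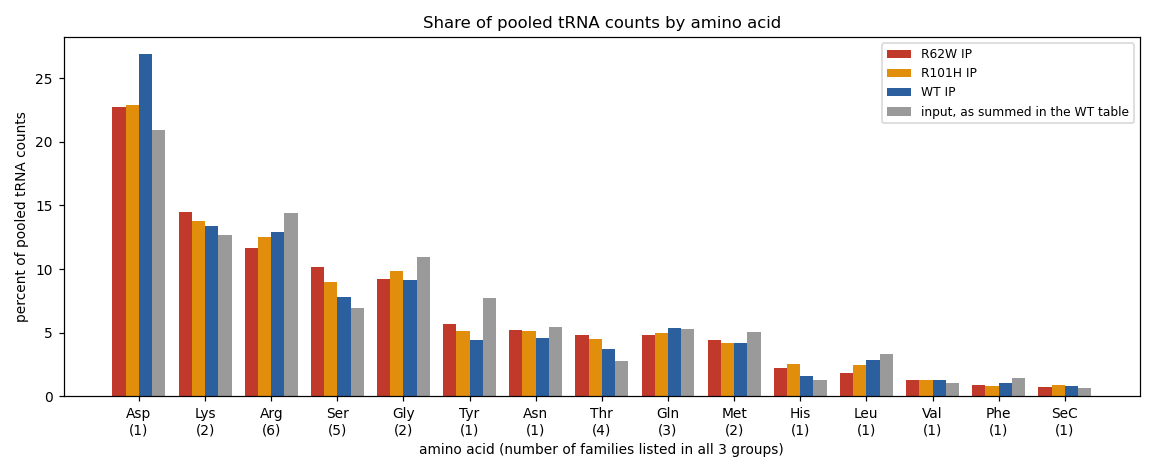
Share of pooled tRNA reads (y axis, percent) by amino acid (x axis) over the 32 tRNA families listed in all 3 groups, for the IP of R62W, R101H and WT and for the input as summed in the WT list. Aspartate takes 22.7%, 22.9% and 26.9% of the 3 IPs, and no error bar is drawn because counts were deposited as sums.

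Isoacceptors of an amino acid did not divide its reads alike in IP and input. Lys-AAA took 27.0% of lysine IP reads in R62W (26.7% to 27.3%), 18.5% in R101H (18.1% to 18.9%) and 26.4% in WT (26.0% to 26.8%). Its input shares were 24.4%, 26.2% and 24.5%. Lys-AAA was therefore below its input share in R101H and above it in R62W and WT. Gly-GGA took 44.7% of glycine IP reads in R62W, 48.2% in R101H and 46.8% in WT, above its input shares of 28.8%, 28.7% and 28.6%. Thr-ACY took 56.1% of threonine IP reads in R62W, 58.3% in R101H and 52.5% in WT, against input shares of 36.5%, 36.9% and 36.2%. Ser-TCA(m) had input shares of 20.2% in R62W, 19.5% in R101H and 20.2% in WT. It was below them in the IPs of both variants, with 12.9% in R62W and 15.6% in R101H, and above its input share in WT, with 25.0%. Intervals of counts as large as these are narrow, and replicates could not be compared on shares.

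In R62W against WT, each of the 34 tRNA families listed in both groups had the higher mean in R62W, where 91.2% of the 68 elements tested did and 8.82% had the lower. The median difference of tRNA families was 0.89 on the log2 scale, with single families between 0.16 and 1.69. Over all 68 elements the median was 0.59, and over the 34 that are not tRNA families it was 0.32. Ser-TCA_ and Ser-TCY headed the order, with differences of 1.69 and 1.64. Next came Gln-CAA with 1.37, Thr-ACG_ with 1.22, Tyr-TAC with 1.21 and Ser-TCA with 1.20. The families marked (m) were at the other end, with 0.16 for Leu-TTA(m) and 0.24 for Ser-TCA(m).

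No tRNA family passed an adjusted p of 0.05 in limma, the moderated linear model fitted to the replicate values of all 68 elements, of which 1.47% passed. At an unadjusted p under 0.05 there were 14 tRNA families, all higher in R62W, against 26.5% of the elements. The 2 lowest adjusted p were those of Ser-TCA, with a difference of 1.20 (SE 0.29, limma adjusted p = 0.113), and Ser-TCY, with 1.64 (SE 0.40, limma adjusted p = 0.113). The 1 element that passed was a simple repeat and was lower in R62W. R62W and WT replicates did not overlap in 12 tRNA families, against 33.8% of the elements: Arg-AGG, Asn-AAC, His-CAY_, Lys-AAG, Met, Met-i, Ser-TCA, Ser-TCA_, Ser-TCG, Ser-TCY, Thr-ACG and Tyr-TAC. A Fisher exact test on the pooled IP reads, which compares pooled libraries and not replicates, passed in 34 of 34 families, against 83.8% of elements. The share was higher in R62W in 23 families (41.2% of elements) and lower in 11 (42.6%). When each difference was centred on the median of all elements, 25 of the 34 families stayed above 0, with a median of 0.30. These 34 families are among the 68 elements that set that median, so centring partly removes a shift common to them. On the log2 ratio of pooled reads the median difference was 0.21. This ratio was scaled to the summed reads of the elements listed in both groups, tRNA families included. A shift common to tRNA families is thus partly removed, so the ratio is not a separate check of the odds ratios.

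**Figure D4:**
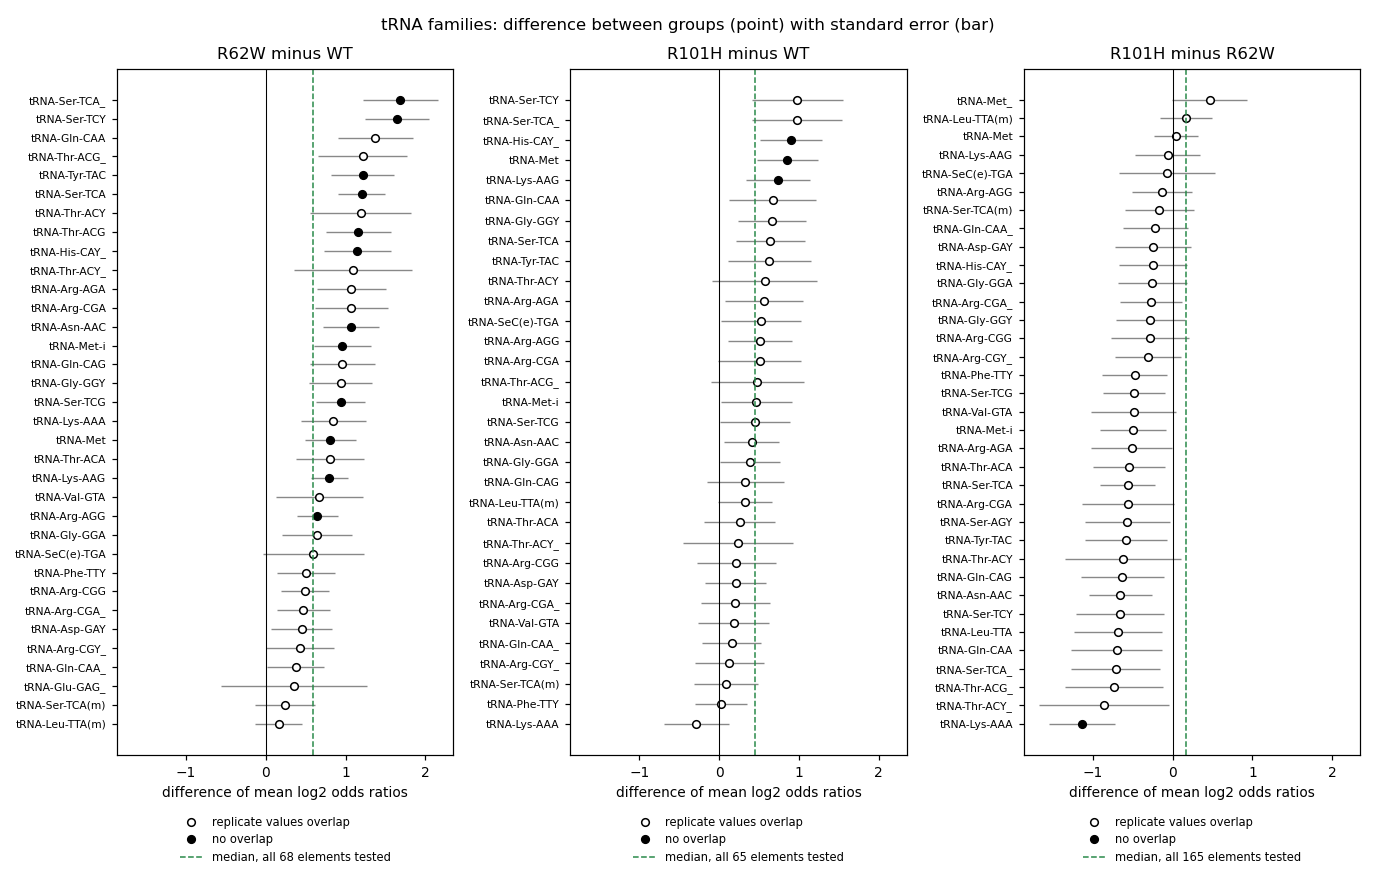
Difference of mean log2 odds ratios (x axis) for each tRNA family tested (y axis) in R62W minus WT, R101H minus WT and R101H minus R62W, with bars of the standard error, filled points where the replicates of both groups do not overlap and a dashed line at the median of all elements tested. In R62W minus WT the 34 families run between 0.16 and 1.69, and in R101H minus R62W 32 of 35 lie below 0 while the line is at 0.16.

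In R101H against WT, 31 of 32 tRNA families had the higher mean in R101H, and 92.3% of the 65 elements tested did. The median difference was 0.46 for tRNA families and 0.45 for all elements. Ser-TCY, at 0.98, and Ser-TCA_, at 0.98, were again at the top, followed by His-CAY_, at 0.90, and Met, at 0.85. Lys-AAA alone had the lower mean in R101H, with a difference of -0.29 (SE 0.41, limma adjusted p = 0.738). No tRNA family passed limma's adjusted threshold (0.0% of the 65 elements did), and none had an unadjusted p under 0.05, where 7.69% of elements did so as higher in R101H. The lowest adjusted p, 0.451, was shared by His-CAY_ (SE 0.39) and Met (SE 0.38). The R101H values lay wholly above the WT values in 3 families, His-CAY_, Lys-AAG and Met, against 30.8% of the elements. The Fisher test on pooled IP reads passed in 29 families, against 78.5% of elements, 18 with a higher share in R101H (47.7%) and 11 with a lower one (30.8%). With 2 R101H values a family, the median difference turned to -0.05 without the higher of them and was 0.98 without the lower. After centring on the median of all elements, 16 of the 32 families lay above 0. The 32 families are among the 65 elements that set this median, so such a split is partly built in. On the log2 ratio of pooled reads, scaled to the elements listed in both groups, tRNA families included, the median difference was 0.01.

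Between the variants, 32 of 35 tRNA families had the lower mean in R101H than in R62W, while 31.5% of the 165 elements tested did. The median difference was -0.49 for tRNA families, 0.16 for all elements and 0.24 for the other 130. Lys-AAA was farthest from 0, with -1.14 (SE 0.41, limma adjusted p = 0.743). It was the 1 tRNA family with an unadjusted limma p under 0.05, and the 1 element of the 165 in that direction (0.606%). It was also the 1 tRNA family, and the 1 element, whose R101H values lay wholly below those of R62W (0.606%). Both shares are thus Lys-AAA itself and give no background for it. In 0 tRNA families did they lie wholly above (26.1% of elements). No tRNA family passed the adjusted threshold in limma (0.0% of elements did). The 3 families with the higher mean in R101H were Met_, with 0.46, Leu-TTA(m), with 0.17, and Met, with 0.04. The 4 next to Lys-AAA were Thr-ACY_, at -0.86, Thr-ACG_, at -0.74, Ser-TCA_, at -0.71, and Gln-CAA, at -0.70. In each of those 4 the replicates overlapped. The Fisher test on pooled IP reads passed in 30 families, against 77.0% of elements, 5 with a higher share in R101H (59.4%) and 25 with a lower one (17.6%). Without the lower R101H value of each family the median difference was 0.06, and without the higher it was -0.96. On the log2 ratio of pooled reads, scaled in the same way to the elements listed in both groups, the median difference was -0.28.

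Families were also grouped by the third letter of the codon, which pairs with the wobble base of the anticodon. Of families of codons ending in A, 14 of 20 were in all 3 lists, near the 62.7% of all tRNA families. These 14 include both families marked (m). Of families named with Y, 8 of 12 were in all 3, of those ending in G 6 of 12, and of those ending in C 2 of 3. Over the families in all 3 lists, the median of the means was 2.88 in R62W, 2.53 in R101H and 2.02 in WT for codons ending in A. For those named with Y it was 2.96 in R62W, 2.43 in R101H and 1.90 in WT, and for those ending in G 2.40 in R62W, 1.93 in R101H and 1.55 in WT. The levels within a class overlapped those of the next, since class A families ran between 1.38 and 2.75 in WT and class G families between 0.26 and 1.77 over all that were listed.

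Grouped by the class of the aminoacyl-tRNA synthetase, the enzyme that loads the amino acid, 14 of 27 class I and 17 of 23 class II families were in all 3 lists. Their median means were 2.52 in R62W, 2.25 in R101H and 1.75 in WT for class I, and 2.86 in R62W, 2.40 in R101H and 1.71 in WT for class II. The families marked (m) were left out of a grouping by the variable arm, since their arm is not known. Of the 10 others with a long arm (leucine, serine and selenocysteine), 5 were in all 3 lists, with medians of 3.07 in R62W, 2.47 in R101H and 1.67 in WT. The 25 with a short arm in all 3 lists had 2.65 in R62W, 2.20 in R101H and 1.72 in WT. Groups of families were chosen with the values known and were not tested.

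Replicates lay farther apart in tRNA families than in the median other element, a difference that was not tested. The median range, highest minus lowest replicate of a family, was 1.14 in R62W, 0.92 in R101H and 1.00 in WT. For the other elements that are not simple repeats it was 0.34 in R62W, 0.16 in R101H and 0.62 in WT, and for simple repeats 0.62 in R62W, 0.28 in R101H and 0.57 in WT. The median tRNA family also had more reads than the median other element in each group. In R62W the medians were 7867 IP reads for tRNA families and 270.0 for other elements. Whether 1 library lay behind the high or the low values could not be seen, because the replicate values carry no number.

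**Figure D5:**
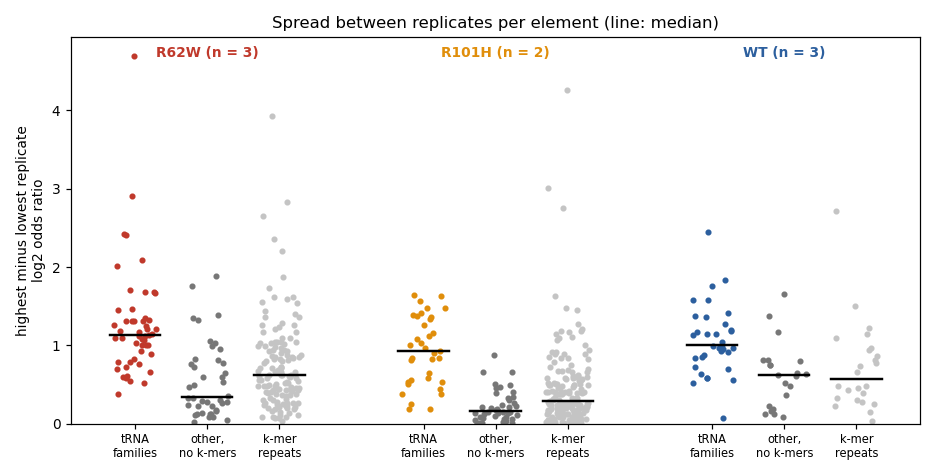
Highest minus lowest replicate log2 odds ratio (y axis) of each listed element in R62W, R101H and WT, split into tRNA families, other elements without simple repeats, and simple (k-mer) repeats; the line is the median. The tRNA medians are 1.14, 0.92 and 1.00, above the medians of both other sets in each group.

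The distance between the log2 odds ratio and the plain read ratio varied with base composition. Only 3 tRNA families had under 45% G and C in each group. Their log2 odds ratio exceeded the log2 ratio of pooled IP to pooled input reads by a median of 0.20 in R62W, 0.15 in R101H and 0.05 in WT. At 55% and over the same difference was -0.90 in R62W (n = 10), -1.07 in R101H (n = 3) and -0.97 in WT (n = 4). Those 10 families in R62W ran between -1.01 and 0.30. In R101H the difference was -0.60 at 45% to under 50% and -0.58 at 50% to under 55%. Ser-TCA, at 62.2% G and C, had 18.8 IP reads per input read in R62W, close to the 20.1 of Thr-ACY, at 51.4%, yet means of 3.22 and 4.02. The level of a family relative to another family thus depends on the baseline. Across families, the mean log2 odds ratio had a Pearson r with G and C content of -0.23 in R62W (n = 51), -0.16 in R101H (n = 35) and -0.44 in WT (n = 34). With the log2 of the pooled input it had an r of -0.33 in R62W, -0.31 in R101H and -0.37 in WT. The families share libraries and the input is a term of both measures, so these are descriptions. The number of nuclear genes with the matching anticodon in the RefSeq table of GRCh38.p14 was counted for the 49 families not marked (m). A family and its variant marked _ share an anticodon, so the same genes count for both while the reads are divided between them. The gene number had an r with the mean log2 odds ratio of -0.19 in R62W (n = 49), -0.15 in R101H (n = 33) and -0.12 in WT (n = 32). With the log2 pooled IP reads its r was 0.38 in R62W, 0.55 in R101H and 0.50 in WT, and those reads had an r with the log2 pooled input of 0.91 in R62W, 0.93 in R101H and 0.95 in WT.

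Set beside the rest of their lists, tRNA families had a median mean log2 odds ratio of 2.27 in R62W, 2.30 in R101H and 1.72 in WT. These medians cover 51, 35 and 34 families in that order. Over the 32 families in all 3 lists the medians were 2.71 in R62W, 2.34 in R101H and 1.75 in WT. On the log2 ratio of pooled reads, relative to that of the whole list, the median was 0.97 in R62W, 0.76 in R101H and 1.26 in WT. Each list sets its own scale here. U3, a small nucleolar RNA listed in WT alone, held 279967 of the 459183 input reads of the WT list. These levels therefore do not order the groups. For other elements that are not simple repeats the median mean log2 odds ratio was 0.75 in R62W, 0.89 in R101H and 0.95 in WT. Simple repeats had 1.49 in R62W, 1.51 in R101H and 1.18 in WT. Of the 20 elements with the highest means in R62W, 14 (70%) were tRNA families, which made up 22.2% of that list. The count was 5 (25%) in R101H, against 13.9% of the list, and 15 (75%) in WT, against 43.0%. Among the 10 highest, tRNA families were 6 (60%) in R62W and 7 (70%) in WT, but 1 (10%) in R101H, below their share of that list. U6, the spliceosomal RNA that RNA polymerase III also makes, had 1.66, 2.04 and 2.19 in R62W, 1.67 and 2.33 in R101H, and 1.08, 1.47 and 1.87 in WT. The U6 values overlapped between WT and both variants. U7, which takes part in histone mRNA processing, had means of 3.45 in R62W, 2.60 in R101H and 2.51 in WT, and U8, a small nucleolar RNA, had 1.16, 0.88 and 0.99 in that order. All of these comparisons rest on lists that kept only enriched elements.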

How the data were processed

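RNA bound by V5-tagged RPS19 was measured by eCLIP in HEK293T cells. Per the submitters' processing notes, reads were handled with fastp and STAR on GRCh38; the sources used here name no version, counter or enrichment test. Per the labels, 1 table per IP group summarises all its replicates. Per the file headers, the deposited counts are whole-number IP and input reads of an element over all replicates. Deposited log2 values are odds ratios of IP over input, the deposited p-values and q-values belong to the authors' enrichment test, and the deposited fraction is that of G and C bases. A further deposited column gives the number of replicates that passed. Library totals are not in the tables, so depth is given as pooled reads per element.

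Replicate values were rebuilt from the lowest, mean and highest value (with a tolerance of 1e-06, all 230, 252 and 79 elements of R62W, R101H and WT gave possible values). Groups were tested in R 4.3.3 with lmFit and eBayes of limma 3.58.1 over all elements listed in both groups. These tests were two-sided, with Benjamini-Hochberg adjustment at 0.05. Whether the fit could call differences of the size seen in tRNA families was not tested. Pooled shares carry exact Clopper-Pearson 95% intervals, and the Fisher exact test on pooled IP reads is two-sided. Python 3.11.15, pandas 2.3.3, numpy 2.4.6, scipy 1.17.1 and matplotlib 3.10.9 were used.

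Alternatives were another variance prior, 1 fit over 3 groups, a pooled input of at least 20, centring, leaving out simple repeats, leaving out replicate values, pooled ratios with a pseudocount of 1, and stricter list thresholds. Families, groupings and lists were chosen with earlier results of these data known. Named families were all those listed in WT, the 5 highest and 3 lowest per group, the 3 with most IP reads per group, and the highest and lowest of each amino acid. The remaining R62W families were added to account for every member. The planned grouping by the wobble base of the anticodon used the third codon letter instead, because the names hold codons. Genes per anticodon were counted among 423 nuclear tRNA genes of the RefSeq table.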

Additional observations from a re-analysis of the deposited data

Results flagged for a closer look

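A mitochondrial tRNA gave a signal in the separate table of genomic windows, which the comparisons of tRNA families do not use. The window lies at chrM:12138-12206 on GRCh38 and is annotated to MT-TH, the mitochondrial histidine tRNA, which serves the ribosomes of mitochondria. It held 16434 IP and 1652 input reads in R62W, 9827 and 1198 in R101H, and 13180 and 1652 in WT. Its log2 odds ratios of IP over input were 3.42, 3.91 and 4.56 in R62W, 3.03 and 4.01 in R101H, and 3.21, 3.22 and 4.21 in WT. The means were 3.96 in R62W, 3.52 in R101H and 3.55 in WT, and the groups overlapped. It is given because it was the 1 window annotated to a mitochondrial tRNA in each list. The lists hold enriched windows only, so IP above input is how it was chosen, and the difference between groups was not tested.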

How the results depend on the processing

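Limma called 0 tRNA families in each comparison, and also 0 under every other variance prior, model over 3 groups, filter, centring and leave-one-out fit that was run. Across those, the lowest adjusted p of a tRNA family was between 0.0805 and 0.345 when R62W was set against WT, 0.105 and 0.990 when R101H was, and 0.448 and 0.968 between the variants. The Fisher exact test on pooled IP reads called 34, 29 and 30 families in that order, because it compares pooled libraries with no spread between replicates. The log2 ratio of pooled reads has no baseline for base composition. On it the median tRNA difference was 0.21 in R62W minus WT, 0.01 in R101H minus WT and -0.28 in R101H minus R62W. These differences were scaled to the summed reads of the elements listed in both groups, tRNA families included. A shift common to tRNA families is thus partly removed. The median tRNA level, scaled to each whole list, was 0.97 in R62W, 0.76 in R101H and 1.26 in WT. The lists differ in their elements, so these levels do not order the groups. Why the pooled ratios differ from the odds ratios was not tested. Leaving out the lowest, middle or highest replicate value of a group gave medians between 0.61 and 1.15 in R62W minus WT, -0.05 and 0.98 in R101H minus WT, and -0.96 and 0.06 in R101H minus R62W. The level medians then ran between 1.99 and 2.43 in R62W, 1.62 and 2.72 in R101H, and 1.49 and 1.98 in WT. Both R101H medians thus changed sign among these fits. Each fit drops the lowest, middle or highest value of every family at once, and those values need not come from 1 replicate. Dropping an extreme value moves the median in a direction set in advance, so dependence on a single replicate was not tested. Where R101H keeps 1 value, it is assumed to vary like the other group. Centring, which shifts every element alike, changed the sign of 9, 14 and 1 families in the 3 comparisons, and Ser-TCG in R101H minus WT, itself the median element, came to 0. The median used for centring includes the tRNA families, so centring is not a separate check of a shift common to them. With q of at most 0.05 in every replicate, 39 families stayed listed in R62W, 35 in R101H and 30 in WT. Of the values of single families under alternatives, 953 did not change sign and 86 did, and none passed limma's adjusted threshold. No paired analysis was possible because the deposited replicate values carry no replicate number.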

Other observations

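Among the other small RNAs, 3 appeared in 1 list each. HY4, a Y RNA made by RNA polymerase III, was listed in R62W alone, with log2 odds ratios of 0.45, 0.78 and 1.27 and 4938 IP and 3317 input reads. U13, a small nucleolar RNA, was also listed in R62W alone, with -0.05, 0.78 and 0.90. U3, the small nucleolar RNA needed for early processing of small subunit rRNA, was listed in WT alone, with 0.27, 0.60 and 0.76. It held 343998 IP and 279967 input reads, more than any tRNA family. For these 3 elements the other groups have no value, and no comparison was made.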
